A study of Sus scrofa with 81 samples.

Results

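The 10 genes described here are ATF4, a transcription factor of the cellular stress response, and genes known as its partners, targets or secreted outputs: ATF5, DDIT3, TRIB3, CHAC1, SESN2, ASNS, NUPR1 and the hormones FGF21 and GDF15. They were found by symbol among 28061 genes in skeletal muscle of pigs. The set was selected on its measured levels at D0 and D60, so its levels at those stages are given as a description with no test. Of the 10 members, 9 reached at least 1 FPKM (fragments mapped to a gene per kilobase of its transcript and per unit of library size) in 3 or more libraries and were among the 14220 genes tested. GDF15 did not reach that level.

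The series covers 27 stages of muscle development in 81 libraries, with 3 libraries per stage. The letter E was taken to mean day of gestation and D day after birth, which gives 15 prenatal stages from E33 to E105 and 12 postnatal stages from D0 to D180. All animals carry the breed label Landrance, and the labels name no treatment, genotype, sex, litter, batch or particular muscle. Nothing states that each library is its own animal, so p-values measure the spread between libraries, which may be technical.

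The integrated stress response begins when kinases that sense amino acid shortage, misfolded protein or mitochondrial damage phosphorylate the translation factor eIF2. General protein synthesis then slows while translation of ATF4 mRNA rises, and ATF4 pairs with C/EBP proteins to switch on genes for amino acid synthesis, amino acid uptake, the charging of tRNA and feedback control. In mice, muscle under mitochondrial stress releases FGF21 and GDF15 into the blood. Protein and eIF2 phosphorylation were not measured here, and ATF4 is controlled in part at translation.

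Muscle genes were detected in every library, with a summed level of 10 markers of at least 1343 FPKM. That sum was 49363 to 62370 FPKM at D60, against 35065 to 57094 at D40 and D80, and 13264 to 18693 FPKM at D0, against 14939 to 41764 at E105 and D9. Libraries of the same stage correlated at Pearson r of 0.954 to 0.993 across genes. The 3 libraries of D60 correlated at 0.981 to 0.986 with each other and those of D0 at 0.957 to 0.982. Sequencing depth relative to E33 replicate 1, recovered from the steps between low FPKM values, ran from 0.612 to 1.27. The absolute depth is not known. In whole tissue, fewer cells of a type and less RNA per cell cannot be told apart.

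**Figure D1:**
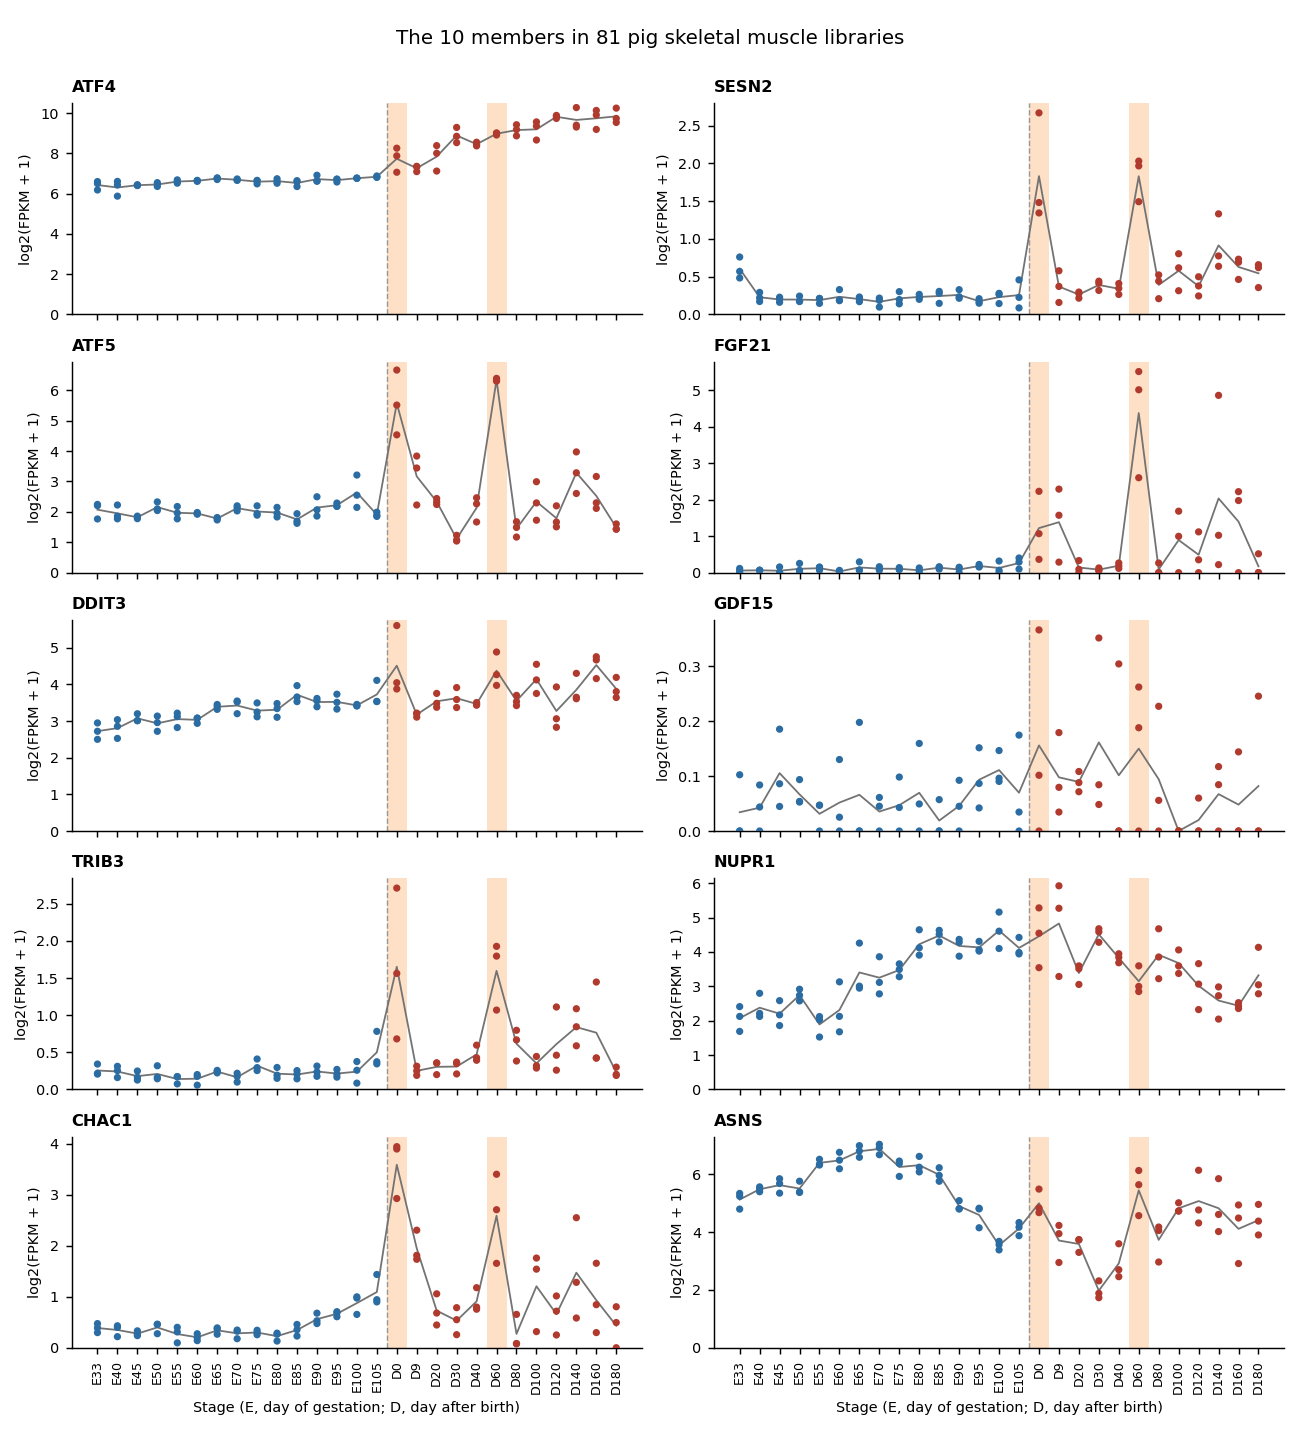
Level of each of the 10 members as log2(FPKM + 1) at the 27 stages; each point is 1 library, the grey line joins stage means, the dashed line marks birth and the shaded columns are D0 and D60. ATF5, TRIB3, CHAC1 and SESN2 peak at both shaded stages, FGF21 at D60, while ATF4 climbs after birth and ASNS is highest at E70.

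At D60 most of the downstream genes of the response stood above both neighbouring stages, while ATF4 itself, NUPR1 and GDF15 did not. In 7 of the 10 members (ATF5, DDIT3, TRIB3, CHAC1, SESN2, FGF21 and ASNS) all 3 libraries of D60 lay above all 6 libraries of D40 and D80. Among all genes tested, 3.33% had that order, and nothing is read from the members' count because they were selected on these stages. ATF4 mRNA was 511, 517 and 482 FPKM at D60, against 375, 347 and 331 at D40 and 468, 581 and 686 at D80. Its D60 libraries were therefore above those of D40 and within the range of D80, and the mean at D60 was 1.08 times that of both neighbours together.

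ATF5, a transcription factor whose own translation is raised by eIF2 phosphorylation, had the most even peak. It was 82.9, 79.6 and 77.8 FPKM at D60, against 2.17, 3.80 and 4.51 at D40 and 1.80, 2.19 and 1.25 at D80. The lowest library of D60 was 17.2 times the highest library of either neighbour, and the ratio of means was 30.5. DDIT3, which encodes the stress factor CHOP, was 28.5, 18.2 and 14.7 FPKM at D60, against 9.78, 10.3 and 10.04 at D40 and 10.6, 9.71 and 11.99 at D80. The groups did not overlap, but the lowest D60 library exceeded the highest neighbour by a factor of only 1.22.

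The feedback and effector genes were low in FPKM and stood above their neighbours by larger ratios than DDIT3. TRIB3, a pseudokinase that dampens ATF4 and CHOP activity, was 2.80, 2.47 and 1.10 FPKM at D60 and at most 0.736 FPKM in the 6 libraries of D40 and D80. CHAC1, an enzyme that degrades glutathione, was 9.60, 5.54 and 2.15 FPKM at D60, against 0.689, 1.26 and 0.739 at D40 and 0.0554, 0.574 and 0.0589 at D80. SESN2, an inhibitor of mTORC1 that senses leucine, was 2.91, 3.08 and 1.81 FPKM at D60 and 0.154 to 0.435 FPKM in the neighbours. All 3 genes kept the D60 libraries apart from the neighbours, with ratios of means of 4.56 for TRIB3, 10.2 for CHAC1 and 8.97 for SESN2.

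ASNS, the asparagine synthetase and a standard ATF4 target, was 48.9, 69.2 and 22.8 FPKM at D60, against 5.50, 11.1 and 4.50 at D40 and 15.6, 17.1 and 6.81 at D80. FGF21 was 44.5, 31.2 and 5.06 FPKM at D60, against 0.140, 0.0833 and 0.201 at D40 and 0.201 at D80 in replicate 1, with replicates 2 and 3 of D80 listed at 0. The 3 D60 libraries spanned a wide range for both genes, yet the lowest FGF21 value of D60 was 25.2 times the highest value of either neighbour. NUPR1, a small chromatin protein of the stress response, went the other way, with 6.19, 6.97 and 11.1 FPKM at D60, against 11.9 to 14.4 at D40 and 8.32 to 24.5 at D80. Only 2 of its 3 D60 libraries lay below all 6 neighbours.

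GDF15, the second stress hormone, was close to the limit of what the libraries could count. It was 0.139, 0.199 and 0 FPKM at D60, against 0.235, 0 and 0 at D40 and 0, 0.0394 and 0.170 at D80. It was listed at 0 in 29 of the 81 libraries. Its median over all 81 libraries, those at 0 included, corresponded to 1 step between low FPKM values, with at most 9.05 steps at D0 replicate 1. No order of stages is read from it.

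At D0 fewer members stood clear of their neighbours, and values differed widely between the 3 libraries. All 3 libraries of D0 lay above all 6 of E105 and D9 for 4 members (ATF5, CHAC1, SESN2 and ASNS), an order found in 10.5% of all genes tested and again a description only. ATF4 was 306, 235 and 133 FPKM at D0, against 117, 113 and 111 at E105 and 136, 160.3 and 163 at D9, so that replicate 3 of D0 lay between the libraries of E105 and those of D9. ATF5 was 100.5, 22.2 and 44.6 FPKM at D0, against 2.96, 2.61 and 2.70 at E105 and 3.68, 9.87 and 13.3 at D9. The ratio of means was 9.54, and replicate 1 carried the highest value of ATF5 in the series.

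CHAC1 was 13.9, 14.4 and 6.62 FPKM at D0, against 1.71, 0.923 and 0.866 at E105 and 2.52, 2.33 and 3.95 at D9. SESN2 was 5.36, 1.79 and 1.54 FPKM at D0 and at most 0.491 FPKM in the 6 neighbouring libraries. ASNS was 43.9, 27.6 and 24.6 FPKM at D0, against 19.1, 17.0 and 13.7 at E105 and 6.73, 14.4 and 17.8 at D9. For these 3 genes the libraries of D0 stayed apart from both neighbours, by a factor of 3.13 between the closest libraries for SESN2 and 1.28 for ASNS.

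For the remaining members the libraries of D0 overlapped their neighbours. DDIT3 was 47.6, 15.5 and 13.7 FPKM at D0, against 16.3, 10.5 and 10.6 at E105 and 7.61 to 8.29 at D9. TRIB3 was 5.55, 1.95 and 0.602 FPKM at D0, against 0.719, 0.269 and 0.294 at E105 and 0.140 to 0.242 at D9. In DDIT3 only replicate 1 exceeded every neighbour, and in TRIB3 replicates 1 and 2 did. FGF21 was 3.68, 1.10 and 0.287 FPKM at D0, against 0.0691 to 0.321 at E105 and 0.221, 1.97 and 3.88 at D9, with no D0 library above all neighbours. NUPR1 was 22.3, 37.9 and 10.6 FPKM at D0, within the range of 8.75 to 59.7 at E105 and D9.

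**Figure D2:**
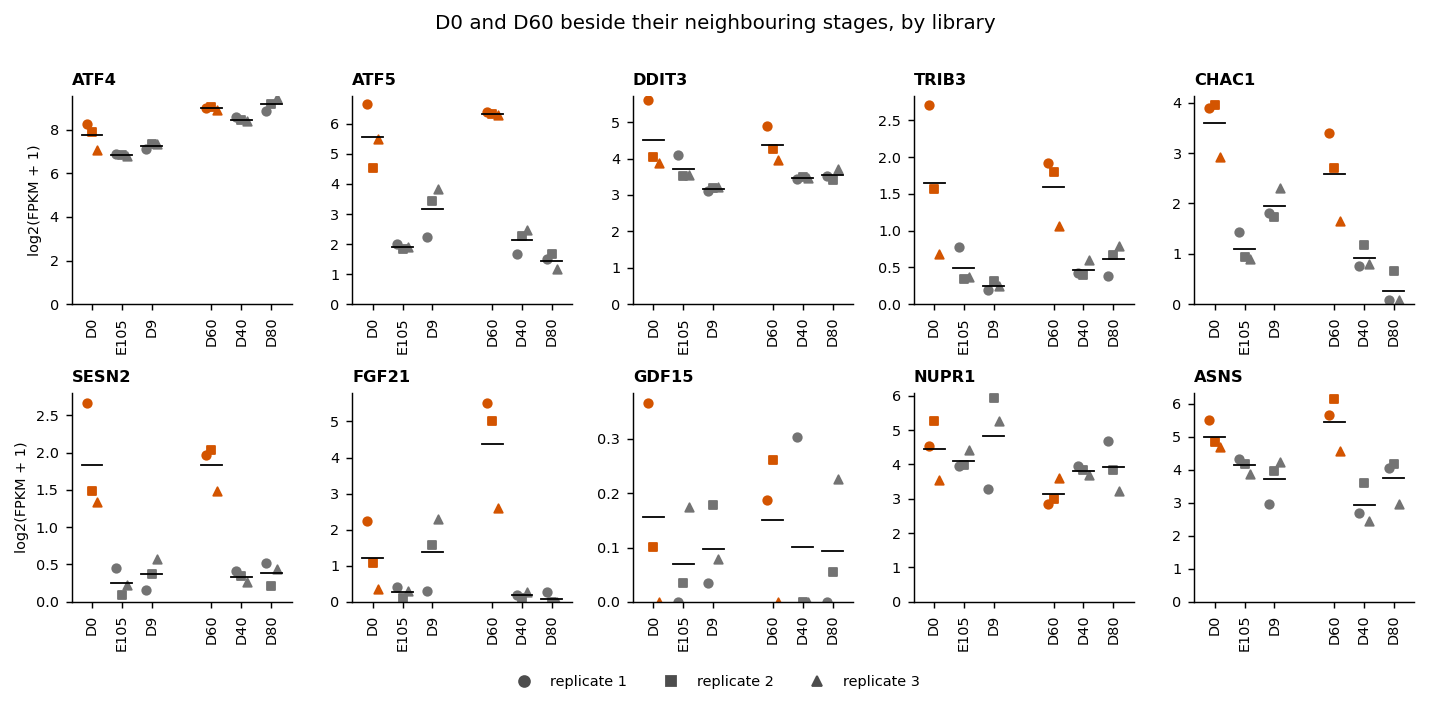
The same log2(FPKM + 1) levels at D0 beside E105 and D9 and at D60 beside D40 and D80; symbols give the replicate number of the library and bars the mean of 3. D60 replicate 3, drawn as a triangle, lies below the other 2 libraries of that stage for every member except NUPR1, and D0 replicate 1, drawn as a circle, lies highest for ATF5, DDIT3, TRIB3 and SESN2.

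The order of the 3 libraries of a stage was counted over the 9 tested members and over all genes tested, as a description. At D60, replicate 3 was the lowest of the 3 libraries for 8 of the 9 members, with NUPR1 the exception, and for 21.2% of all genes. At D0, replicate 1 was the highest for 7 members and 34.0% of all genes, and replicate 3 the lowest for 8 members and 44.3%. At E105 replicate 1 was the highest for 8 members and 32.2% of all genes. At D9 replicate 1 was the lowest for 8 members and 43.9% of all genes, and FGF21 was 0.221 FPKM there and 1.97 and 3.88 FPKM in the other 2 libraries. Depth relative to E33 replicate 1 was 0.786 to 0.899 at D60 and 0.859 to 0.981 at D0.

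Outside D0, D60 and their neighbours, E45 replicate 2 and E85 replicate 1 were each the highest library of their stage for 7 of the 9 members. The shares of all genes with that order were 25.7% and 34.2%. A member count of 7 was the largest at those stages. TRIB3, CHAC1, SESN2 and FGF21 were at most 0.373 FPKM in every library of E45 and E85, so their order rests on few reads. D140 replicate 2 was the highest for 6 members and 25.8% of all genes, and it held the highest FGF21 value outside D60. It had 28.0 FPKM of FGF21, against 0.164 and 1.03 in replicates 1 and 3, and 56.7 FPKM of ASNS, against 15.2 and 23.5. CHAC1 was 4.87 FPKM in this library and 0.498 and 1.43 in the other 2, and ATF4 was 1242 FPKM, its highest value in the series, against 634 and 676. ATF5 did not follow, with 8.75 FPKM in replicate 2 and 14.7 FPKM in replicate 3, and TRIB3 (0.502 FPKM) and NUPR1 (3.13 FPKM) were lowest in replicate 2.

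The other genes of the pathway were followed in 13 lists of 192 genes, of which 191 were in the table and 186 were tested. The lists were chosen with earlier results of these data known, so their counts at D60 and D0 are not an independent test. Of these 186 genes, 22 were higher and 3 lower at D60 than at D40 and D80 by limma (adjusted p below 0.05 and a log2 fold change of at least 1). Over all 14220 genes the shares were 0.478% higher and 0.415% lower. The median log2 fold change of the 186 genes was 0.05, against 0.00 over all genes. All 3 libraries of D60 lay above all 6 of D40 and D80 in 21 of the 22 genes called higher. That order is a description only, because the genes were called in the same contrast. D60 replicate 2 was the highest of the 3 libraries for 20 of these 22 genes and for 25.4% of all genes tested. D60 replicate 3 was the lowest for 17 of them and for 21.2% of all genes tested.

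Serine synthesis led the D60 calls, with 5 of 11 genes of serine and one-carbon synthesis higher and none lower. PSAT1, which makes phosphoserine, was 41.7, 96.2 and 17.98 FPKM at D60, against 2.28, 3.30 and 4.32 at D40 and 2.72, 4.19 and 2.20 at D80. PHGDH, the entry enzyme of serine synthesis, was 24.8, 55.5 and 19.2 FPKM at D60, against 2.79, 5.25 and 5.87 at D40 and 1.80, 2.92 and 0.321 at D80. Their log2 fold changes were 3.39 ± 0.31 (SE, adjusted p = 2.2e-12) for PSAT1 and 3.08 ± 0.31 (SE, adjusted p = 6.37e-11) for PHGDH. PSPH, which completes the route to serine, rose by 2.06 ± 0.22 (SE) and the mitochondrial enzymes SHMT2 and MTHFD2 by 1.91 ± 0.17 and 1.22 ± 0.16 (SE) on the log2 scale.

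Some genes that charge tRNA and a few that carry amino acids into the cell also rose. Among 20 cytosolic aminoacyl-tRNA synthetases 6 were higher, led by SARS1 for serine at 1.96 ± 0.17 (SE), GARS1 for glycine at 1.45 ± 0.16 and IARS1 for isoleucine at 1.29 ± 0.12. SARS1 was 111, 163 and 90.9 FPKM at D60 and 25.6 to 34.9 FPKM at D40 and D80. Among 18 amino acid transporters 3 were higher: SLC7A5 by 1.60 ± 0.22 (SE), its heavy chain SLC3A2 by 1.34 ± 0.22 and the neutral amino acid carrier SLC1A4 by 1.44 ± 0.21. The list medians were 0.54 for serine and one-carbon synthesis, 0.50 for the synthetases and 0.03 for the transporters.

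Further calls at D60 were spread over 5 lists. In other amino acid synthesis, PYCR1 for proline rose by 1.40 ± 0.19 (SE) and GPT2 for alanine by 1.24 ± 0.13, while glutamine synthetase GLUL fell by 1.16 ± 0.27 on the log2 scale, out of 13 genes. Without D60 replicate 2 only 1 gene of this list was higher and none lower, and without D80 replicate 3 there were 3 higher. Of 20 other ATF4 targets 4 rose, led by mitochondrial PCK2 at 1.82 ± 0.24, CEBPG at 1.26 ± 0.14 and the tRNA exporter XPOT at 1.14 ± 0.11, and TXNIP was lower. CEBPG, which dimerizes with ATF4, was the only one of 13 bZIP partners called. It was 15.8, 19.7 and 15.4 FPKM at D60 and 5.004 to 8.02 FPKM in the 6 libraries of D40 and D80. Of 15 p53 targets only CDKN1A, an inhibitor of the cell cycle, was called, at 1.72 ± 0.20 (SE).

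Among 11 fasting and PPAR targets, the fatty acid carrier FABP3 rose by 1.53 ± 0.28 (SE), and PDK4, which curbs glucose oxidation, fell by 2.35 ± 0.72 on the log2 scale (adjusted p = 0.0286). PDK4 was 2.09, 3.57 and 4.26 FPKM at D60, against 13.2, 22.6 and 2.68 at D40 and 13.3, 56.0 and 97.4 at D80, so that D40 replicate 3 overlapped D60. Without D60 replicate 2 none of the 3 lower calls (GLUL, TXNIP and PDK4) remained, and 17 genes were higher. Other libraries left out gave 1 lower gene (D40 replicate 1 or D80 replicate 3) or 6 (D40 replicate 3), of which 2 were bZIP partners. TXNIP was also lost without D60 replicate 1 and PDK4 without D60 replicate 3. Both TXNIP and PDK4 were lost without D40 replicate 1 and without D80 replicate 3. Against D40 alone 18 genes were higher and none lower, and against D80 alone 25 were higher and 12 lower. The shares of all genes given above are for both neighbours together and do not apply to these counts.

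In 5 lists limma called no gene at D60. They were the eIF2 kinases, phosphatase and eIF2B subunits (18 genes, 5 with an unadjusted p below 0.05), the endoplasmic reticulum chaperones under ATF6 and XBP1 (21 genes, 4), the mitochondrial chaperones and proteases (13 genes, 5), the receptors of FGF21 and GDF15 (6 genes, 1) and the muscle atrophy ubiquitin ligases with FOXO factors (10 genes, 6). Of all 186 list genes 82 had an unadjusted p below 0.05 at D60, and the share over all genes tested is not given here. The chaperone HSPA5, a sensor of misfolded protein in the endoplasmic reticulum, was 50.3, 50.3 and 49.8 FPKM at D60, within the range of 36.9 to 68.4 at D40 and D80. It was picked as the best known gene of its list after its values were seen. The list medians ran from -0.47 for the atrophy genes to 0.13 for the mitochondrial chaperones.

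At D0 more of the pathway was called than at D60, beside more calls among all genes. Of the 186 genes 41 were higher and 6 lower than at E105 and D9, against shares of 3.02% higher and 5.68% lower among all genes tested. The median log2 fold change was 0.45 for the 186 genes and -0.02 over all genes. Without D0 replicate 1 the counts were 34 higher and 5 lower, and without D0 replicate 3 they were 59 and 6. Replicate 1 was the highest of the 3 D0 libraries in 30 of the 41 genes called higher and in 34.0% of all genes tested.

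The tRNA synthetases held the largest share, with 12 of 20 higher and none lower, a list median of 1.09 and all 20 genes at an unadjusted p below 0.05. Of all 186 list genes 126 were below that p, and the share over all genes tested is not given here. AARS1 for alanine was 212, 98.8 and 60.6 FPKM at D0, against 22.2 to 27.8 at E105 and 31.6 to 43.8 at D9, a log2 fold change of 1.83 ± 0.16 (SE, adjusted p = 7.36e-15). SARS1 rose by 1.68 ± 0.17 (SE) and YARS1 for tyrosine by 1.47 ± 0.14. In the serine list only the mitochondrial enzymes MTHFD2, at 1.68 ± 0.16, and SHMT2, at 1.31 ± 0.17, were called. PHGDH at D0 was 15.7, 29.8 and 7.79 FPKM, against 7.09 to 9.52 at E105 and 4.92, 15.2 and 22.8 at D9, and it was not called. The serine list held 5 calls in place of 2 without D0 replicate 3.

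Genes of amino acid supply were also called at D0. Of 18 transporters 4 were higher, led by SLC3A2 at 1.303 ± 0.22 (SE), SLC7A5 at 1.27 ± 0.22 and SLC43A2 at 1.16 ± 0.17, and SLC7A2 was lower, with 2 transporters lower without D0 replicate 2. GLUL rose by 1.61 ± 0.27 (SE), the only call among 13 genes of other amino acid synthesis, which held 2 without D0 replicate 2 or D0 replicate 3. Among 20 other ATF4 targets 7 rose, led by PCK2 at 1.64 ± 0.24 and the autophagy genes SQSTM1 at 1.37 ± 0.14 and GABARAPL1 at 1.36 ± 0.21, and only 3 did without D0 replicate 1. Among the bZIP partners CEBPD rose by 1.78 ± 0.36 and CEBPG by 1.12 ± 0.14, while FOS fell by 2.99 ± 0.73 on the log2 scale. Without D0 replicate 1 only 1 bZIP partner was higher, and without D9 replicate 1 a further one was lower, which made 2.

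Chaperone genes were called at D0. The mitochondrial chaperones HSPA9, HSPD1 and HSPE1 rose by 1.96 ± 0.14, 1.89 ± 0.14 and 1.13 ± 0.17 (SE), 3 of 13 genes in their list. HSPD1 was 371, 242 and 299 FPKM at D0, against 65.9 to 85.04 at E105 and 80.7 to 96.5 at D9, with no overlap. Of 21 endoplasmic reticulum chaperones and sensors 3 rose, SDF2L1 by 1.37 ± 0.26, ATF6 by 1.22 ± 0.15 and DNAJB11 by 1.10 ± 0.14, and 10 did without D0 replicate 3. The only call among the eIF2 genes was the kinase EIF2AK2, which fell by 1.10 ± 0.30 on the log2 scale. It was no longer called without D0 replicate 1 or D9 replicate 2, and 1 or 2 eIF2 genes were called higher without E105 replicate 1, D0 replicate 2 or 3, or D9 replicate 2 or 3.

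Genes of fasting and muscle breakdown were also called at D0. PDK4 was 1440.3, 341 and 1098 FPKM at D0, against 10.7 to 21.03 at E105 and 112, 345 and 380.3 at D9, a log2 fold change of 3.74 ± 0.72 (SE, adjusted p = 1.82e-05), and replicate 2 lay within the D9 range. The lipid droplet gene PLIN2 rose by 1.65 ± 0.22 and FABP3 by 1.15 ± 0.28, which made 3 of 11 fasting genes. The ubiquitin ligase FBXO32 rose by 2.03 ± 0.30 and FOXO3 by 1.45 ± 0.18 among 4 of 10 atrophy genes higher, while myostatin, MSTN, fell by 2.58 ± 0.26 on the log2 scale. Of the p53 targets GADD45A and SESN1 rose by 1.66 ± 0.27 and 1.49 ± 0.19. Of the receptors FGFR4 and RET fell by 2.18 ± 0.19 and 1.88 ± 0.20.

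**Figure D3:**
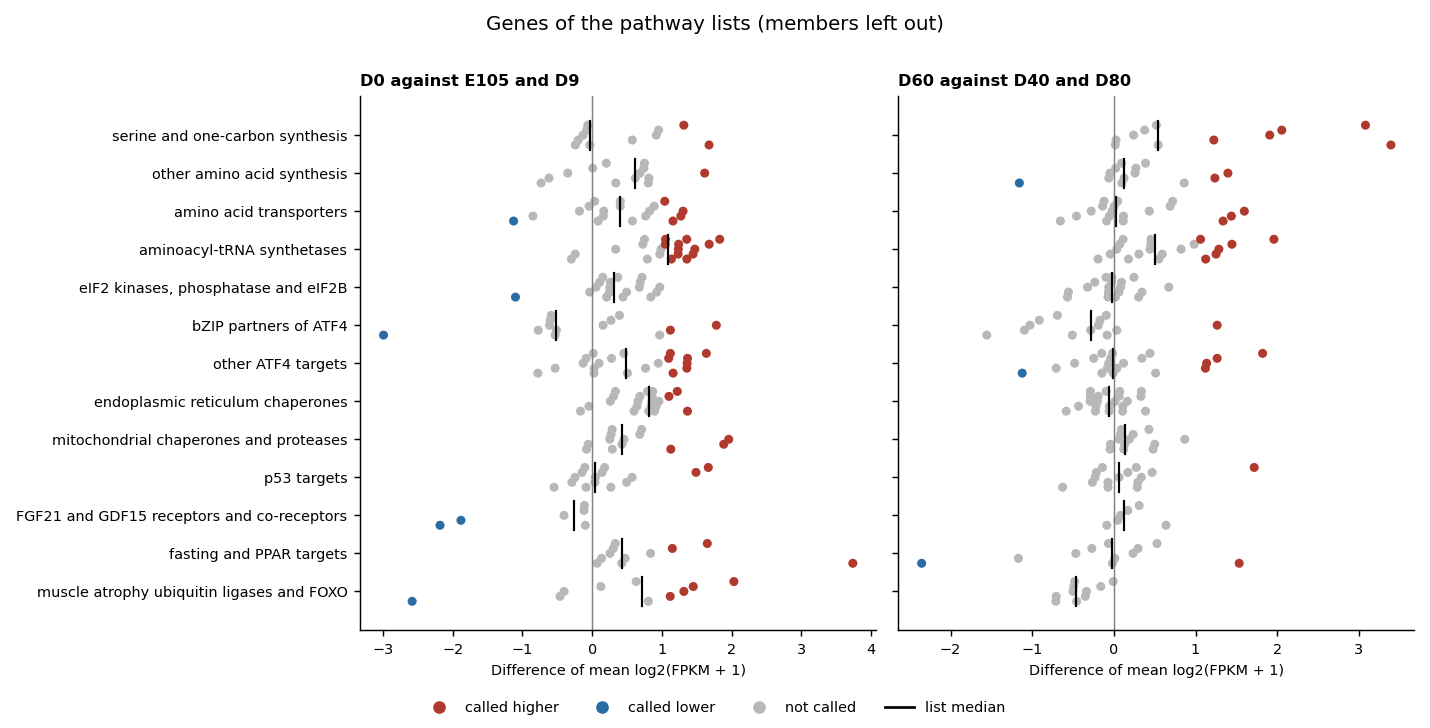
Log2 fold change (difference of mean log2(FPKM + 1)) of each tested gene of the 13 pathway lists at D0 against E105 and D9 (left) and at D60 against D40 and D80 (right); red and blue points were called higher and lower, grey points were not called, and black bars are list medians. Serine synthesis holds the farthest points at D60, and the tRNA synthetases have the highest list median at D0, at 1.09.

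Markers of other tissues at these stages were as follows. The summed level of 10 liver markers was 32.5 to 54.9 FPKM at D60, against 10.7 to 57.4 at D40 and D80, nearly all of it APOA1, while albumin (ALB) was at most 0.139 FPKM at D60 and 0.223 FPKM at D40 and D80, and TTR was listed at 0 in all 9 of these libraries. Liver is the main source of circulating FGF21 in mice. Adipocyte markers summed to 149 to 323 FPKM at D60, against 127 to 334, and leukocyte and macrophage markers to 22.4 to 29.99 FPKM, against 24.1 to 247. Erythroid markers were 497 to 1046 FPKM at D60, against 101 to 1159. At D0 erythroid markers were 312 to 378 FPKM, against 1512 to 3408 at E105 and D9, and leukocyte and macrophage markers 16.2 to 22.2 FPKM, against 24.2 to 76.4. The part of the lower D0 sums in the D0 results was not tested.

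Away from D0, D60 and their neighbours the members followed separate courses over development. These comparisons contrast the other 21 stages. The spread behind each test was estimated from all 81 libraries, with those of D0, D60 and their neighbours included. In an F test over the 21 stages 7 of the 9 tested members passed, while 97.9% of all genes did. SESN2, one of the 7, reached 1 FPKM in only 1 of the 63 libraries of these stages and was tested only through D0 and D60; of the other 8 members 6 passed. TRIB3 (adjusted p = 0.108) and FGF21 (adjusted p = 0.0533) did not pass.

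Before birth, NUPR1 rose and ASNS fell. NUPR1 averaged 19.5 ± 6.38 FPKM over E90, E95 and E100 and 3.77 ± 1.15 FPKM over E33, E40 and E45 (SD, n = 9 each), a log2 fold change of 2.09 ± 0.24 (SE, adjusted p = 1.33e-11). ASNS averaged 21.1 ± 8.88 FPKM at the later fetal stages and 42.4 ± 8.48 FPKM at the earlier ones, a log2 fold change of -1.07 ± 0.22 (SE, adjusted p = 2.08e-05). Among all genes tested 5.25% were higher and 7.31% lower in the later stages, with a median log2 fold change of -0.18. The ASNS call did not hold without E95 replicate 3 (-0.99) or after median-ratio scaling (-0.89) or quantile normalisation (-0.97), where it was below the required fold change. These scalings also turned the split of all calls to 820 higher and 651 lower and to 886 and 725, against 746 and 1040 as deposited. DDIT3 had a log2 fold change of 0.62 ± 0.14 (SE, adjusted p = 0.000118), short of the required fold change.

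The course of ASNS in the fetus was not a straight decline. It averaged 34.4 FPKM at E33, 117 ± 14.8 FPKM at E70 and 10.7 FPKM at E100, and its 3 libraries at E70 (131, 101 and 120.1 FPKM) were the highest of any stage by mean, though E65 overlapped them. At E70 ASNS was thus above the 22.8 to 69.2 FPKM of D60. In the fetus 5 members were low, with ATF5 at 2.08 to 8.26 FPKM, TRIB3 at 0.0402 to 0.719, SESN2 at 0.0602 to 0.692, CHAC1 at 0.0689 to 1.71 and FGF21 at 0 to 0.321 FPKM over 45 libraries. ATF4 was 57.7 to 119.6, DDIT3 4.66 to 16.3 and NUPR1 1.87 to 34.7 FPKM over the same libraries, and GDF15 at most 0.147 FPKM.

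After birth ATF4 mRNA rose and ASNS fell relative to the fetal stages. ATF4 averaged 702 ± 308 FPKM over the 7 postnatal stages D20, D30 and D100 to D180 (SD, n = 21) and 95.7 ± 11.1 FPKM over E33 to E100 (SD, n = 42), with no overlap between the 2 groups. The log2 fold change was 2.70 ± 0.08 (SE, adjusted p = 2.25e-40). ASNS averaged 21.7 ± 16.6 FPKM after birth and 61.1 ± 33.1 FPKM before, a log2 fold change of -1.59 ± 0.12 (SE, adjusted p = 2.53e-18). Among all genes tested 4.62% were higher and 25.8% lower after birth, and the median gene stood at -0.58.

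That shift of the median gene came down to -0.03 under median-ratio scaling, which also gave 1675 higher and 1068 lower calls among all genes, against 657 and 3664 as deposited. Quantile normalisation gave 1355 higher and 1197 lower. Under these scalings DDIT3 was called higher after birth, at 1.37 and 1.23, against 0.60 ± 0.08 (SE) as deposited, and ASNS was not called at -0.78 under median-ratio scaling. FGF21 was called with a pseudocount of 0.1, at 1.37, against 0.65 ± 0.18 (SE) with a pseudocount of 1. ATF5 (0.09 ± 0.10) and NUPR1 (0.04 ± 0.13) had the smallest differences.

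Within postnatal growth, ATF4 and ASNS rose again and NUPR1 fell. ATF4 averaged 893 ± 255 FPKM over D140, D160 and D180 (SD, n = 9) and 364 ± 168 FPKM over D20 and D30 (SD, n = 6), a log2 fold change of 1.39 ± 0.15 (SE, adjusted p = 2.36e-11). ASNS averaged 24.1 ± 14.3 FPKM at the later stages and 7.08 ± 4.69 FPKM at the earlier ones, a log2 fold change of 1.67 ± 0.25 (SE, adjusted p = 1.12e-07). NUPR1 averaged 6.50 ± 3.99 FPKM at the later stages and 15.8 ± 7.19 FPKM at the earlier ones, a log2 fold change of -1.17 ± 0.27 (SE, adjusted p = 0.000271). Among all genes tested 0.865% were higher and 1.88% lower in the later stages. Median-ratio scaling gave 203 higher and 246 lower, and quantile normalisation 163 and 212, against 123 and 268 as deposited.

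FGF21 was called higher late in postnatal growth, at 1.09 ± 0.36 (SE, adjusted p = 0.00992), but on few libraries. Of the 9 libraries of D140, D160 and D180, 4 had at least 1 FPKM and 3 were listed at 0, while the 6 libraries of D20 and D30 had 0 to 0.258 FPKM. Without D140 replicate 2 the log2 fold change was 0.62 (adjusted p = 0.064). Without D160 replicate 1 or replicate 3 it was 0.99 and 0.95, below the required fold change. When only the libraries of these 5 stages were fitted the adjusted p was 0.15.

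**Figure D4:**
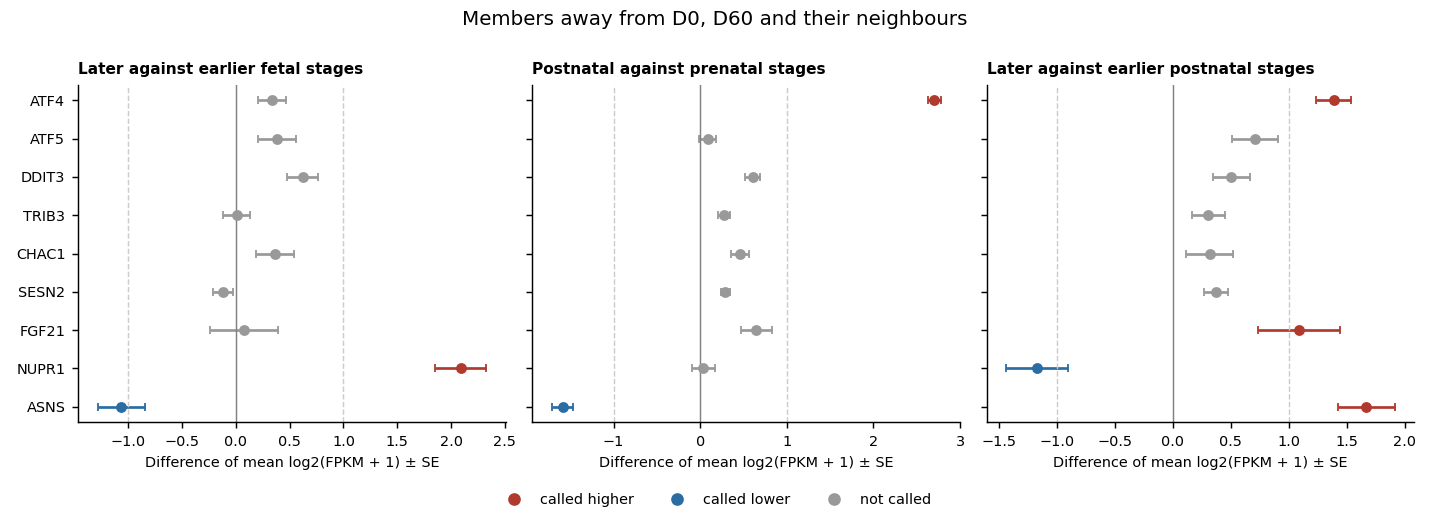
Log2 fold change (difference of mean log2(FPKM + 1)) with its SE for the 9 tested members in the 3 comparisons that leave out D0, D60 and their neighbours; dashed lines mark the required fold change, red and blue points were called higher and lower. ATF4 and ASNS lie on opposite sides after birth, at 2.70 and -1.59, and FGF21 carries the widest SE.

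The order of stages by mean level was as follows. ATF4 was highest at D180 (938 ± 249 FPKM, SD, n = 3), followed by D120, D160 and D140, all with overlapping ranges, and D60 was at rank 7 of 27. ATF5 was highest at D60 (80.1 ± 2.60 FPKM), followed by D0 (55.8 ± 40.3 FPKM), which overlapped D60 and lay apart from the next stage, D140 (9.51 ± 4.85 FPKM). SESN2 had D0 (2.89 ± 2.14 FPKM) and D60 (2.60 ± 0.689 FPKM) on top, with D60 apart from D140 (0.926 ± 0.516 FPKM).

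CHAC1 was highest at D0 (11.7 ± 4.38 FPKM), then D60 (5.77 ± 3.73 FPKM) and D9 (2.93 ± 0.887 FPKM), with overlap between each of these neighbours. TRIB3 was highest at D0 (2.70 ± 2.56 FPKM) and D60 (2.12 ± 0.904 FPKM), and D60 overlapped the next stage, D140 (0.807 ± 0.311 FPKM). DDIT3 was highest at D0 (25.6 ± 19.1 FPKM), D160 (22.4 ± 4.88 FPKM) and D60 (20.5 ± 7.18 FPKM), all overlapping. FGF21 was highest at D60 (26.9 ± 20.1 FPKM), followed by D140 (9.72 ± 15.8 FPKM), which rests on 1 library. NUPR1 was highest at D9 (35.3 ± 25.6 FPKM), which overlapped E100 (24.7 ± 9.37 FPKM) and D0.

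Some members reached the level needed for testing in few libraries. SESN2 reached 1 FPKM in 7 libraries, of which only D140 replicate 2 was outside D0 and D60, so that it passed the filter through those stages alone. TRIB3 reached it in 8 libraries, 3 of them elsewhere, and FGF21 in 13, 8 of them elsewhere. CHAC1 reached it in 18 libraries, 12 of them at other stages.

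The genes outside the set that were most like each member were found by Pearson r of log2(FPKM + 1) over the 27 stage means, as a description. Stage means share libraries across genes, so these values carry no p. The 27 stages include D0 and D60, on which the set was selected, so nothing is read from the size of these values. For ATF5 they were PCK2 (0.894), CEBPG (0.851) and SARS1 (0.808), for TRIB3 CEBPG (0.879), SARS1 (0.839) and TGM3 (0.814), and for SESN2 CEBPG (0.948), SARS1 (0.881) and PCK2 (0.809). For FGF21 they were CEBPG (0.811), SARS1 (0.807) and FAM43B (0.790). Another member was closer than any of these genes in some cases: FGF21 had an r of 0.843 with ATF5, and ATF5 had 0.896 with CHAC1. FGF21 with SESN2 (0.804) and ATF5 with SESN2 (0.891) were below the nearest gene outside the set. Over the 25 stages without D0 and D60 the values for ATF5 were 0.446 with PCK2, 0.2998 with CEBPG and 0.558 with SARS1. For TRIB3 they were 0.513 with CEBPG, 0.623 with SARS1 and 0.774 with TGM3. SESN2 had 0.791 with CEBPG, 0.790 with SARS1 and -0.02 with PCK2. FGF21 had 0.640 with CEBPG, 0.865 with SARS1 and 0.386 with FAM43B. Among members, ATF5 and SESN2 had 0.361 over the 25 stages, FGF21 and ATF5 0.738, and FGF21 and SESN2 0.747.

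ATF4 had other neighbours: VAPA (0.986), MID1IP1 (0.979) and LOC100523672 (0.972). Over the 25 stages VAPA stood at 0.988. CHAC1 was most like EIF4EBP3 (0.911), LOC100522842 (0.901) and TWF2 (0.884), DDIT3 like NUDT12 (0.846), SQSTM1 (0.829) and PDLIM5 (0.823), NUPR1 like POPDC2 (0.862), ART3 (0.848) and FAM180B (0.838), and ASNS like DENR (0.863), RNF113A (0.851) and TAF13 (0.847). Over the 25 stages CHAC1 stood at 0.728 with EIF4EBP3, 0.783 with LOC100522842 and 0.810 with TWF2. Between members, SESN2 and TRIB3 had an r of 0.938 over the 27 stages and 0.692 over the 25. ATF5 and CHAC1 had 0.896 and 0.739, and ATF4 and ATF5 had 0.169 and 0.016.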

How the data were processed

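Per the labels' protocols, ribosomal RNA was removed from TRIzol-extracted RNA before strand-specific library construction. The authors deposited 1 table of FPKM per gene and library. Per the submitters' processing notes, the tools were Trimmomatic, HISAT2 2.0.4 and StringTie 1.3.1. Their genome build was not given in the sources used here, and coordinates, promoters and protein sequences were not used. FPKM are shares of a library, so a gene reads lower where others take a larger share.

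The table held 28325 entries, and 264 repeats of a gene ID were dropped. Blank symbols of 1522 genes were taken from RefSeq (assembly Sscrofa11.1, names only). The 14220 genes that reached 1 FPKM in 3 or more libraries were fitted with limma 3.58.1 (R 4.3.3) on log2(FPKM + 1). The fit had 27 stage means, 54 residual degrees of freedom and a mean-variance trend, and two-sided p-values were adjusted by Benjamini and Hochberg's method over these genes. Calls needed an adjusted p below 0.05 and a log2 fold change of at least 1 in size; the F test used the adjusted p alone. Fold changes on this scale understate those of low genes. Steps between low FPKM values gave relative depth only, and they were taken as about 1 read each without proof. For GDF15, 37 of the 52 values above 0 lay within 0.1 of a whole number of steps. The fit was tested on simulated data. The members, gene lists and comparisons were chosen with earlier results of these data known. Named genes were all members, the 3 largest calls of each list at D60 and at D0, and the 3 genes most like each member. Exceptions chosen after their values were seen were PHGDH at D0, HSPA5, and further called genes of short lists (SHMT2, MTHFD2, TXNIP, SLC7A2). Python 3.11.15 with pandas 2.3.3, numpy 2.4.6 and matplotlib 3.10.9 prepared tables and figures.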

Additional observations from a re-analysis of the deposited data

How the results depend on the processing

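Calls were recomputed with a pseudocount of 0.1, other filters, 2 other scalings, no variance trend, the replicate number as a block, only the libraries compared, adjusted p alone, other stage sets and each library left out. With adjusted p alone the members called were 5 in place of 2 between fetal stages, 7 in place of 2 after birth and 7 in place of 4 within postnatal growth, and the list genes called were 48 in place of 25 at D60 and 118 in place of 47 at D0. The share of all genes called by adjusted p alone is not given here. The shares above need the fold change as well and do not apply to these counts. Between fetal stages both quantile normalisation and median-ratio scaling left 1 member called in place of 2. Leaving out single libraries gave 1 to 2 members between fetal stages, 3 to 4 within postnatal growth, 17 to 29 list genes at D60 and 39 to 65 at D0. TRIB3 between fetal stages, uncalled at 0.006, turned to -0.054 under quantile normalisation and ranged from -0.016 to 0.032 without single libraries. NUPR1 after birth, uncalled at 0.04, ranged from -0.022 to 0.086 without single libraries. With the replicate block, 7 members passed the F test, 2, 2 and 4 were called in the 3 developmental comparisons, and 25 and 47 list genes at D60 and D0, as without it. Same-numbered libraries of different stages had a median correlation of deviations of -0.0004, with 240 of 1053 pairs over 0.1. Differently numbered libraries had a median of -0.0017, with 436 of 2106 pairs over 0.1. Over all stages together the numbers showed no pairing of samples, and pairing among some of the stages was not tested. Precision rests on 3 libraries per stage and on FPKM without read counts, and members below 1 FPKM rest on few reads.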

Other observations

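The pathway lists were also counted at stages outside D0, D60 and their neighbours. Between later and earlier fetal stages limma called 17 of the 186 list genes higher and 15 lower, beside 5.25% and 7.31% of all genes tested. Median-ratio scaling gave 20 and 10, and quantile normalisation 23 and 11. Of 11 fasting and PPAR targets 6 were higher and none lower (list median 1.27, against -0.18 over all genes), and of 21 endoplasmic reticulum chaperones 8 were lower and none higher (-0.55), with 4 and 5 lower under these 2 scalings. The transporter gene SLC7A5 fell by 2.44 ± 0.15 (SE) and PHGDH by 1.42 ± 0.21 on the log2 scale, 2 genes that were named above for D60. None of the 20 tRNA synthetases was called, with 17 at an unadjusted p below 0.05. So were 145 of all 186 list genes, and the share over all genes tested is not given here.

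After birth 20 list genes were higher and 37 lower than before it, beside 4.62% and 25.8% of all genes tested. Median-ratio scaling turned that split to 43 higher and 9 lower, and quantile normalisation to 35 and 16. Serine and one-carbon synthesis had 5 of 11 genes lower and none higher, with PHGDH down by 2.08 ± 0.12 (SE, adjusted p = 9.48e-25), and the endoplasmic reticulum chaperones 8 of 21 lower (list median -0.90, against -0.58 over all genes). Under either scaling the serine list had 2 genes higher and 2 lower, and the chaperones had 1 lower after median-ratio scaling, against 5 after the quantile method, with 1 higher after each. Later in postnatal growth 7 of 11 fasting and PPAR targets were lower than at D20 and D30 (list median -1.15), among 3 list genes higher and 12 lower in all, beside 0.865% and 1.88% of all genes tested.

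At D140 replicate 2 had 28.0 FPKM of FGF21. Of the 22 list genes called higher at D60, replicate 2 was the highest of the 3 D140 libraries for 11, replicate 3 for 10 and replicate 1 for 1. Among all genes tested replicate 2 was the highest for 25.8%, replicate 3 for 28.1% and replicate 1 for 45%. SARS1 was 69.8, 71.7 and 88.3 FPKM there, and PSAT1 5.46, 12.5 and 6.80 FPKM.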
